A study of Mus musculus with 10 samples.

Results

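The genes described here are 37 named genes of the autophagy machinery and its receptors, chosen by name and ordered by the step of autophagosome formation at which their proteins act. The gene table holds 36 of them among its 11702 genes, and Atg10 was reached only through the transcript table. The 37 genes comprise 5 genes of the ULK initiation complex, 6 of the class III PI3-kinase step, 5 of phagophore lipid supply and PI3P binding, 10 conjugation enzymes and proteases, 5 ATG8 proteins and 6 receptors for cargo and mitochondria.

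Autophagy encloses cytoplasm in a double membrane and delivers it to the lysosome. The ULK kinase complex starts the process, a class III PI3-kinase marks the membrane with PI3P, and a pair of ubiquitin-like conjugation systems attaches the small ATG8 proteins (LC3 and GABARAP types) to the membrane lipid. Receptors bind both cargo and ATG8 proteins, and SQSTM1 (p62) is itself degraded by autophagy. In the retina, photoreceptors, which shed and rebuild their outer segments, depend on this recycling. RNA levels as measured here do not report autophagic flux.

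Polyadenylated RNA of whole retina from female mice was sequenced in 10 libraries. The WT group received DMSO (libraries W1, W2, W3 and W4), and rd10 mice, of the B6.CXB1-Pde6b rd10/J line, which carries a mutation in the rod phosphodiesterase gene Pde6b and loses its rods, received DMSO (D1, D2 and D3) or halofantrine, HAL, an antimalarial compound (H1, H2 and H3). Each injection was 1 μL into the vitreous, HAL was given at 20 μM, injections were made at P10 and P24, and retinas were taken at P36. The strain of the WT mice is not given in the sources used here, and rd10 pups came from intercrosses. By the labels, the second batch held 1 rd10 DMSO library (D3) and 2 rd10 HAL libraries (H2 and H3), and all others, WT included, were of batch 1. The library titles carry a further tag, set1 for W1 to W3, set1_5 for W4 alone, set2 for D1, D2 and H1, last for H2 and H3 and final for D3. No set holds both genotypes, so genotype and set cannot be told apart, and within batch 2 treatment and tag cannot be told apart. Each title also carries a number that differs between libraries of the same tag, but the labels do not say that this number marks an animal. P-values therefore measure only the spread between these libraries, which may be technical. Comparing rd10 DMSO with WT addresses how rd10 retina differs from WT, and comparing rd10 HAL with rd10 DMSO addresses what the compound changes.

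Gene counts totalled 15512212 to 38160436 per library, with D3 the lowest. Levels are CPM (counts scaled to a common library total) after TMM scaling over the 10 libraries. The library labelled WT W4 went against its label. Pde6b stood at 2699, 2849.8 and 2855 CPM in W1 to W3, at 93.1 CPM in W4 and at 125 to 387 CPM in the rd10 libraries. The summed level of 14 rod markers, all detected, was 82654 to 86826 CPM in W1 to W3, 3333 CPM in W4 and 4214 to 12379 CPM in rd10. The sums of 10 Müller glia markers (4449 to 4631 against 7796 to 9512 CPM), 8 gliosis markers (325 to 375 against 1306 to 1609 CPM), 10 bipolar markers (1788 to 1879 against 2773 to 3263 CPM) and 7 of 13 microglia markers in the table (49.3 to 55.5 against 168 to 207 CPM) were higher in W4 and rd10 than in W1 to W3. None of these listed markers was at 0 in all libraries. Counts of calls, and the fold changes of the called members named, are therefore given without W4 and with it, and levels are given for W4 apart. In whole retina, fewer cells of a type and less RNA per cell cannot be told apart.

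Without W4, 17 of 36 members differed between rd10 DMSO and WT in edgeR's quasi-likelihood test at a Benjamini-Hochberg adjusted p under 0.05, 7 higher and 10 lower in rd10. Over all genes tested, 62.2% were called, 32.3% higher and 29.9% lower, against 47.2% of the members. The median log2 fold change of the members was -0.09 beside -0.01 over all genes, and the median absolute log2 fold change was 0.23 beside 0.37. The direction of small changes depended on scaling. Under library size alone the median of all genes rose to 0.19, and 15 members were called higher (46.2% of all genes) and 5 lower (17.4%); Rb1cc1, Pik3r4, Uvrag, Wipi2 and Tax1bp1, called lower with TMM, then lost their call. With either scaling Optn, Atg12, Atg4c, Nbr1 and Atg4d were called lower. Optn, a receptor for ubiquitin-tagged mitochondria and bacteria, fell most, and Sqstm1 rose most. With W4 kept in the WT group, 0 members were called by edgeR (0.0% of all genes), 11 of 36 had an unadjusted p under 0.05 (26.6% of all genes), limma-voom called 0 and DESeq2 called 1, Optn (5.04% of all genes). For each of the 17 members called without it, W4 lay outside the range of W1 to W3 and nearer to the mean of rd10 DMSO than to the mean of W1 to W3 in log2 CPM. The matching share over all genes was not counted. Calls over all genes went from 0.0% with W4 to 62.2% without it, so this position of W4 is not particular to the members. Of the 17 calls made without W4, 12 held when any 1 further library was left out, and 10 held under each alternative test, scaling and filter as well.

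**Figure D1:**
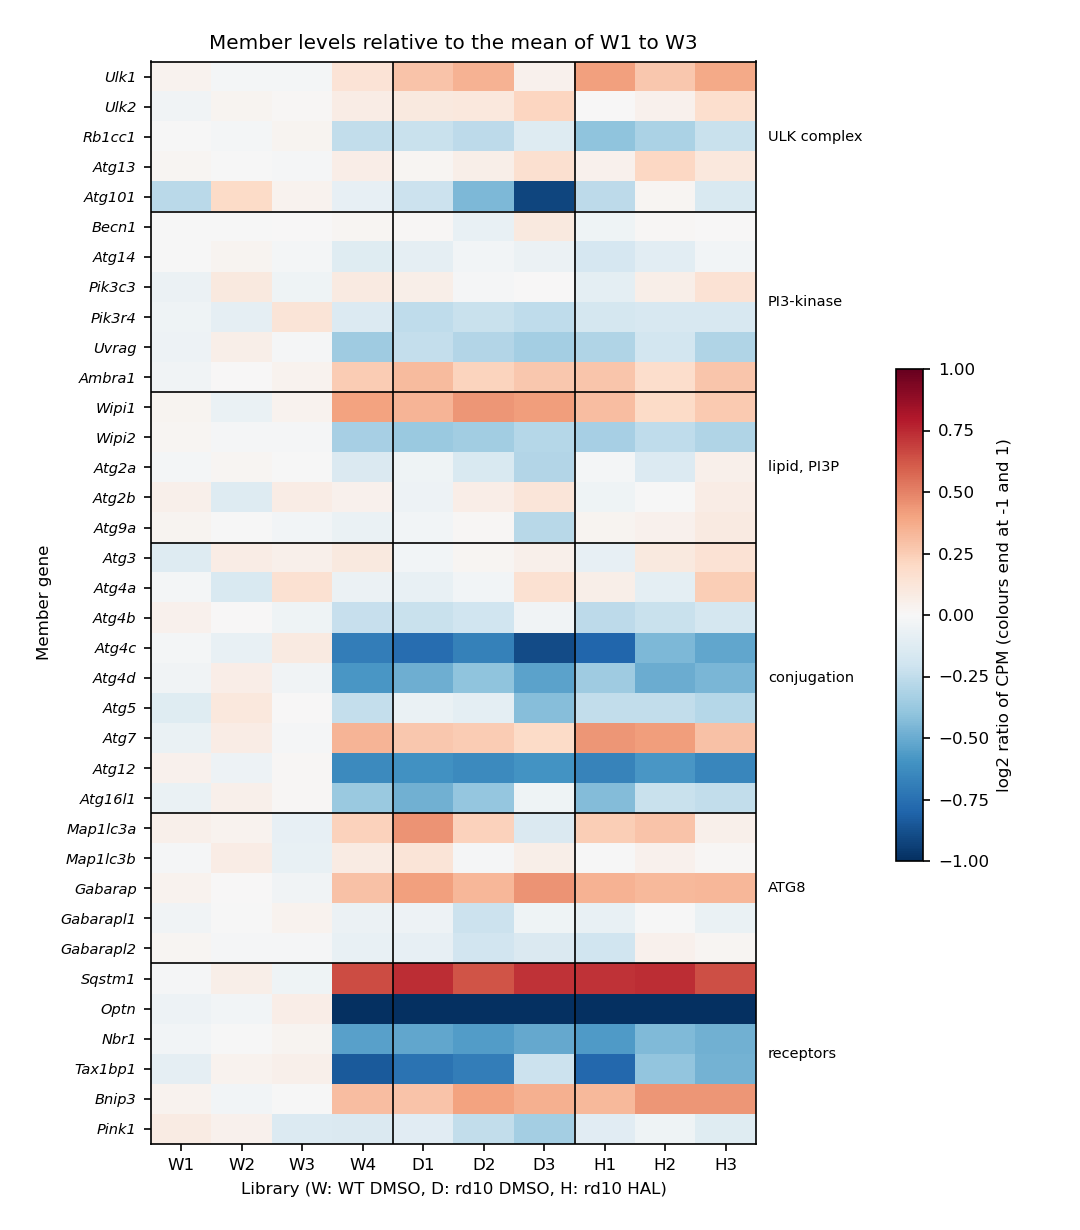
Each row is a member and each column a library; colour is the log2 ratio of CPM to the mean of W1 to W3, with vertical lines between WT DMSO, rd10 DMSO and rd10 HAL and horizontal lines between stages. W4 takes the colours of the rd10 libraries in the rows of Sqstm1, Optn, Nbr1, Atg12, Atg4c and Gabarap, while the rows of Becn1, Atg14 and Pik3c3 are pale throughout.

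Divided by transcript length, levels can be set beside each other between genes. In W1 to W3 the most abundant member was Gabarapl1 at 150.2 ± 3.63 CPM per kb (SD, n = 3). Pink1 at 115 ± 8.94 and Tax1bp1 at 114 ± 6.09 CPM per kb followed and lay within their spread of each other. Nbr1 came next at 97.7 ± 1.93 CPM per kb. Gabarapl2 at 87.2 ± 1.06, Sqstm1 at 87.1 ± 3.18 and Optn at 86.9 ± 3.79 CPM per kb did not differ beyond their spread. The first 11 places were held by the 5 ATG8 proteins and the 6 receptors. The other 25 genes lay between 37.1 ± 1.6 CPM per kb for Atg16l1 and 5.94 ± 0.634 for Atg4a. In rd10 DMSO Sqstm1 reached 141 ± 5.6 CPM per kb, a level within the spread of Gabarapl1 at 140.0 ± 9.11, while Optn stood at 23.7 ± 5.35 CPM per kb. These lengths come from transcript models of another build than the one the reads were assigned to, and 79.5% of the counts of Atg4a and 88.1% of those of Atg9a fell on transcripts with a known length.

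In the ULK initiation complex, Ulk1 was higher and Rb1cc1 lower in rd10 DMSO than in WT without W4. Ulk1 encodes the initiating kinase and stood at 123, 118 and 118 CPM in W1 to W3, 131 in W4, 146, 152 and 123 in D1 to D3 and 159, 144 and 156 in H1 to H3. D3 was close to W1 to W3, and the other 5 rd10 libraries were above W1 to W3 and also above W4. The log2 fold change was 0.24 ± 0.08 (SE, edgeR adjusted p = 0.0351). Rb1cc1 (FIP200), the scaffold of the complex, stood at 127, 126 and 130.2 CPM in W1 to W3, 108 in W4, 109, 107 and 117 in rd10 DMSO and 96.9, 103 and 109 in rd10 HAL, all rd10 values lying below W1 to W3. Its log2 fold change in rd10 DMSO was -0.19 ± 0.06 (edgeR adjusted p = 0.021). Both calls were lost when any one of D1, D2, W1, W2 or W3 was left out, with adjusted p up to 0.118 for Ulk1 and 0.0785 for Rb1cc1. With W4 kept, the log2 fold changes were 0.20 for Ulk1 and -0.15 for Rb1cc1 (edgeR adjusted p = 0.194 and 0.28). Ulk2, a second ULK kinase, and Atg13, the adaptor of the complex, had log2 fold changes of 0.15 and 0.09 and were not called (edgeR adjusted p = 0.058 and 0.197). Atg101, which stabilises ATG13, had the lowest CPM per kb of the complex and stood at 12.3, 16.9 and 15.2 CPM in W1 to W3, 13.9 in W4, 12.7, 10.8 and 7.81 in rd10 DMSO and 12.3, 15.0 and 13.3 in rd10 HAL. D3 was the lowest library, and the log2 fold change of -0.48 ± 0.20 was not called (edgeR adjusted p = 0.0675). It passed the threshold without D1 or without W1, at adjusted p no lower than 0.0331. The summed level of the 5 genes was 468 ± 1.01 CPM in W1 to W3, 469 CPM in W4 and 484 ± 3.48 CPM in rd10 DMSO (SD, n = 3 each).

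At the class III PI3-kinase step, 3 of 6 genes were called in rd10 DMSO, beside 62.2% of all genes, and the kinase and its core partner were not among them. Becn1 (Beclin 1), the core partner, had 88.5, 88.6 and 89.2 CPM in W1 to W3, 90.0 in W4, 89.3, 84.2 and 95.2 in rd10 DMSO and 86.1, 89.5 and 89.0 in rd10 HAL. The groups overlapped, and the log2 fold change was 0.02 with a 95% interval of -0.12 to 0.17. Pik3c3 (VPS34), the catalytic subunit, and Atg14, which directs the complex to autophagy, had log2 fold changes of 0.03 (-0.14 to 0.19) and -0.05 (-0.20 to 0.10) and were not called. Ambra1, a regulator that binds Beclin 1, stood at 87.4, 90.1 and 91.8 CPM in W1 to W3, 107 in W4, 112, 105 and 108 in rd10 DMSO and 109, 101 and 109 in rd10 HAL. Each rd10 library was above W1 to W3, and the log2 fold change was 0.28 ± 0.05 (edgeR adjusted p = 0.00299). Uvrag, the partner that takes Beclin 1 to endosomal traffic, had 39.3, 42.3 and 40.4 CPM in W1 to W3, 31.8 in W4, 34.5, 33.3 and 32.2 in rd10 DMSO and 33.0, 35.8 and 33.1 in rd10 HAL. It was lower in each rd10 library than in W1 to W3, with a log2 fold change of -0.28 ± 0.07 in rd10 DMSO (edgeR adjusted p = 0.00853). Pik3r4 (VPS15), the regulatory subunit, had 48.7, 47.2 and 54.9 CPM in W1 to W3, 45.8 in W4, 42.2, 43.0 and 42.3 in rd10 DMSO and 44.6, 45.0 and 44.9 in rd10 HAL, with a log2 fold change of -0.23 ± 0.07 (edgeR adjusted p = 0.0267). That call was lost without D1, D2, W1 or W3, with adjusted p up to 0.0857. With W4 kept, the log2 fold changes were 0.20 for Ambra1, -0.20 for Uvrag and -0.21 for Pik3r4 (edgeR adjusted p = 0.192, 0.227 and 0.187).

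The PI3P-binding genes Wipi1 and Wipi2 moved in opposite directions. Wipi1 stood at 56.8, 53.0 and 57.1 CPM in W1 to W3, 73.3 in W4, 70.5, 75.5 and 74.4 in rd10 DMSO and 68.9, 63.5 and 66.5 in rd10 HAL. Wipi2, which recruits ATG16L1 to the phagophore, stood at 147, 143 and 144 CPM in W1 to W3, 115 in W4, 112, 114 and 119 in rd10 DMSO and 115, 121 and 118 in rd10 HAL. All rd10 libraries and W4 were above W1 to W3 for Wipi1 and below them for Wipi2. In rd10 DMSO the log2 fold changes were 0.41 ± 0.06 for Wipi1 (edgeR adjusted p = 0.000781) and -0.32 ± 0.05 for Wipi2 (adjusted p = 0.0013). With W4 kept they were 0.29 and -0.25 (edgeR adjusted p = 0.187 and 0.187). The lipid transfer genes Atg2a and Atg2b and the scramblase gene Atg9a were not called, with log2 fold changes of -0.15, 0.06 and -0.08. Atg2a passed the threshold when D1 was left out (adjusted p = 0.0453).

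Of 9 conjugation enzymes and proteases tested, 3 were lower and 1 was higher in rd10 DMSO, 44.4% beside 62.2% of all genes called. Atg12, the ubiquitin-like protein that is joined to ATG5, stood at 80.8, 75.7 and 79.0 CPM in W1 to W3, 50.4 in W4, 51.6, 50.6 and 51.9 in rd10 DMSO and 49.3, 52.3 and 49.9 in rd10 HAL. The 6 rd10 libraries lay within 49.3 to 52.3 CPM, well apart from W1 to W3, and the log2 fold change was -0.60 ± 0.06 (edgeR adjusted p = 9.37e-05). Atg4c and Atg4d encode proteases of the family that trims ATG8 proteins and releases them from membrane. Atg4c stood at 55.2, 53.1 and 59.5 CPM in W1 to W3, 34.7 in W4, 33.1, 35 and 30.0 in rd10 DMSO and 32.2, 41.0 and 39.1 in rd10 HAL. Atg4d stood at 49.0, 52.6 and 48.9 CPM in W1 to W3, 33.5 in W4, 35.8, 37.9 and 34.7 in rd10 DMSO and 39.3, 35.7 and 36.6 in rd10 HAL. For both proteases W4 and every rd10 library lay below W1 to W3, and the log2 fold changes were -0.76 ± 0.08 for Atg4c (edgeR adjusted p = 0.000171) and -0.46 ± 0.07 for Atg4d (adjusted p = 0.000801). For Atg4d, the coding form overlapped between W1 to W3 and rd10 DMSO while a retained-intron form did not, as given with the transcript forms below. Atg7, the E1-like enzyme of both conjugation systems, stood at 22.1, 24.3 and 22.9 CPM in W1 to W3, 29.2 in W4, 27.9, 27.5 and 26.4 in rd10 DMSO and 31.4, 30.8 and 28.3 in rd10 HAL. It was higher in each rd10 library than in W1 to W3, by 0.25 ± 0.07 on the log2 scale in rd10 DMSO (edgeR adjusted p = 0.0183), and the call was lost without D1, D2, W1 or W3, at adjusted p up to 0.0821. With W4 kept, the log2 fold changes were -0.48 for Atg12, -0.63 for Atg4c, -0.35 for Atg4d and 0.15 for Atg7 (edgeR adjusted p = 0.187, 0.187, 0.189 and 0.364).

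The other conjugation genes were not called in rd10 DMSO without W4. The E2-like gene Atg3 had a log2 fold change of 0.03 (-0.16 to 0.21, 95% interval) and Atg5, the partner of ATG12, of -0.17 (-0.45 to 0.10). The proteases Atg4a and Atg4b had log2 fold changes of 0.03 (-0.27 to 0.33) and -0.14 (-0.30 to 0.02). Atg16l1, which places the conjugation site on the membrane, stood at 105, 115 and 112 CPM in W1 to W3, 85.6 in W4, 79.1, 84.5 and 107 in rd10 DMSO and 82.1, 94.7 and 93.5 in rd10 HAL. D3 lay within the range of W1 to W3 and the other 5 rd10 libraries lay below it. The log2 fold change was -0.28 ± 0.11 (edgeR adjusted p = 0.0634), and the gene was called without D3 (adjusted p = 0.000252) and by DESeq2 and limma-voom. Atg4b, at 101, 98.7 and 95.6 CPM in W1 to W3 and 84.4, 85.7 and 96.4 in rd10 DMSO, was likewise called without D3, at adjusted p = 0.00622. The sum over the 9 genes was 481 ± 6.55 CPM in W1 to W3, 381 CPM in W4, 389 ± 17.6 CPM in rd10 DMSO and 393 ± 14.7 CPM in rd10 HAL (SD, n = 3 each).

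Atg10, the E2-like enzyme that joins ATG12 to ATG5, is not listed in the gene table. Its transcripts held 139 to 309 estimated counts per library. The level was 9.24, 7.83 and 8.13 CPM in W1 to W3, 7.93 in W4, 9.35, 7.76 and 8.56 in rd10 DMSO and 7.31, 8.44 and 8.51 in rd10 HAL. These values overlapped between all groups. Two-sided exact permutation tests on log2 CPM gave p = 0.8 for rd10 DMSO against W1 to W3 and p = 0.4 for HAL against DMSO, where 3 against 3 libraries cannot go below 0.1, and p = 0.629 with W4 included, where the smallest possible value is 0.0571.

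Among the ATG8 proteins, Gabarap was higher in rd10 DMSO and the other 4 were not called, 1 of 5 (20%) beside 62.2% of all genes called. Gabarap stood at 65.3, 63.6 and 61.9 CPM in W1 to W3, 78.0 in W4, 84.3, 80.0 and 86.6 in rd10 DMSO and 80.9, 79.7 and 79.9 in rd10 HAL. All rd10 libraries exceeded W1 to W3 and also W4, and the log2 fold change was 0.41 ± 0.06 without W4 (edgeR adjusted p = 0.000732) and 0.32 ± 0.10 with it (adjusted p = 0.187). Map1lc3b, the LC3 form most used to mark autophagosomes, stood at 172, 183 and 165 CPM in W1 to W3, 184 in W4, 189.5, 172 and 181 in rd10 DMSO and 173, 178 and 175 in rd10 HAL, with overlap between the groups and a log2 fold change of 0.07 (-0.08 to 0.22). Map1lc3a, a neuronal LC3 form, varied more between libraries, at 58.3, 57.7 and 53.2 CPM in W1 to W3, 66.0 in W4, 77.0, 66.2 and 50.9 in rd10 DMSO and 66.8, 68.7 and 58.2 in rd10 HAL. D3 was below W1 to W3 for this gene while D1 and D2 were above them, and the log2 fold change was 0.21 (-0.11 to 0.54) or, without D3, 0.35 (edgeR adjusted p = 0.00326).

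The GABARAP-type genes Gabarapl1 and Gabarapl2 showed no call. Gabarapl1 stood at 266, 272 and 279 CPM in W1 to W3, 262 in W4, 262, 235 and 264 in rd10 DMSO and 259, 271 and 259.8 in rd10 HAL. Gabarapl2 stood at 125, 122 and 122 CPM in W1 to W3, 117 in W4, 116, 108 and 111 in rd10 DMSO and 107, 126 and 125 in rd10 HAL. The log2 fold changes in rd10 DMSO were -0.09 ± 0.07 and -0.13 ± 0.05 (edgeR adjusted p = 0.269 and 0.0682), and of the libraries left out in turn only D3 brought Gabarapl2 past the threshold (adjusted p = 0.0483). The sum of the 5 ATG8 genes was 688 ± 8.97 CPM in W1 to W3, 706 CPM in W4 and 694 ± 34.2 CPM in rd10 DMSO (SD, n = 3 each). The share of Gabarap in the summed CPM per kb of the family went from 12.7% to 13.2% in W1 to W3 to 15.7% to 17.4% in rd10 DMSO.

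The receptors held the largest changes of any member in either direction, and 5 of the 6 were called in rd10 DMSO, beside 62.2% of all genes, Sqstm1 and Bnip3 higher and Optn, Nbr1 and Tax1bp1 lower. Optn (ENSMUSG00000026672) stood at 211, 215 and 229 CPM in W1 to W3, 51.7 in W4, 51.9, 51.7 and 75.1 in rd10 DMSO and 51.2, 63.1 and 63.3 in rd10 HAL. W4, D1, D2 and H1, all of batch 1, lay within 51.2 to 51.9 CPM, and the 3 rd10 libraries of batch 2 lay above them but far below W1 to W3. The log2 fold change in rd10 DMSO was -1.87 ± 0.15 without W4 (edgeR adjusted p = 5.48e-05) and -1.57 ± 0.49 with it (adjusted p = 0.187). Sqstm1 (ENSMUSG00000015837) stood at 175, 184 and 171 CPM in W1 to W3, 278 in W4, 294, 273 and 292 in rd10 DMSO and 291, 294 and 276 in rd10 HAL. W1 to W3 were below all other libraries, and the log2 fold change was 0.71 ± 0.06 without W4 (edgeR adjusted p = 7.49e-05) and 0.51 ± 0.18 with it (adjusted p = 0.187). Per kb, the ratio of Sqstm1 to Optn was 1.03, 1.06 and 0.925 in W1 to W3, 6.66 in W4, 7.02, 6.55 and 4.82 in rd10 DMSO and 7.04, 5.78 and 5.4 in rd10 HAL. The rod marker sum moved with Optn in these libraries. Like Sqstm1, the Müller glia, gliosis, bipolar, amacrine, ganglion, endothelium and microglia sums were higher in W4 and each rd10 library than in W1 to W3. The part of these marker levels in either result was not tested.

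Nbr1 and Tax1bp1, further receptors of ubiquitin-tagged cargo that share an ATG8-binding motif with SQSTM1, were lower in rd10. Nbr1 stood at 382, 388 and 398 CPM in W1 to W3, 267 in W4, 271, 264 and 273 in rd10 DMSO and 263, 286 and 279 in rd10 HAL, with no overlap between W1 to W3 and the other 7 libraries. Its log2 fold change in rd10 DMSO was -0.52 ± 0.06 (edgeR adjusted p = 0.000178), or -0.41 with W4 kept (adjusted p = 0.187). Tax1bp1 stood at 354, 385 and 391 CPM in W1 to W3, 211 in W4, 225, 233 and 325 in rd10 DMSO and 219, 286 and 271 in rd10 HAL. The 4 libraries W4, D1, D2 and H1 were lowest, and D3 came nearest to WT. Its log2 fold change was -0.52 ± 0.14 (edgeR adjusted p = 0.0147), and the call was lost without D2, W2 or W3, at adjusted p up to 0.0524. With W4 kept it was -0.36 (edgeR adjusted p = 0.305).

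Of the mitophagy genes, Bnip3, a receptor in the outer mitochondrial membrane that is induced in hypoxia, was higher in rd10. It stood at 121, 116 and 118 CPM in W1 to W3, 146 in W4, 144, 156 and 151 in rd10 DMSO and 148, 161 and 161 in rd10 HAL. The rd10 libraries and W4 were above W1 to W3 without overlap, and the log2 fold change was 0.36 ± 0.06 (edgeR adjusted p = 0.00106), or 0.26 with W4 kept (adjusted p = 0.187). Pink1, the kinase that marks damaged mitochondria, stood at 278, 271 and 239.6 CPM in W1 to W3, 237 in W4, 243, 222 and 207 in rd10 DMSO and 242, 256 and 242 in rd10 HAL. Its groups overlapped, and the log2 fold change of -0.22 ± 0.09 was not called (edgeR adjusted p = 0.0555), although it passed without D1 or without W3, at adjusted p no lower than 0.0341. Summed over the 6 receptors, the level was 1542 ± 19.3 CPM in W1 to W3, 1191 CPM in W4, 1251 ± 64.0 CPM in rd10 DMSO and 1284 ± 66.8 CPM in rd10 HAL.

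**Figure D2:**
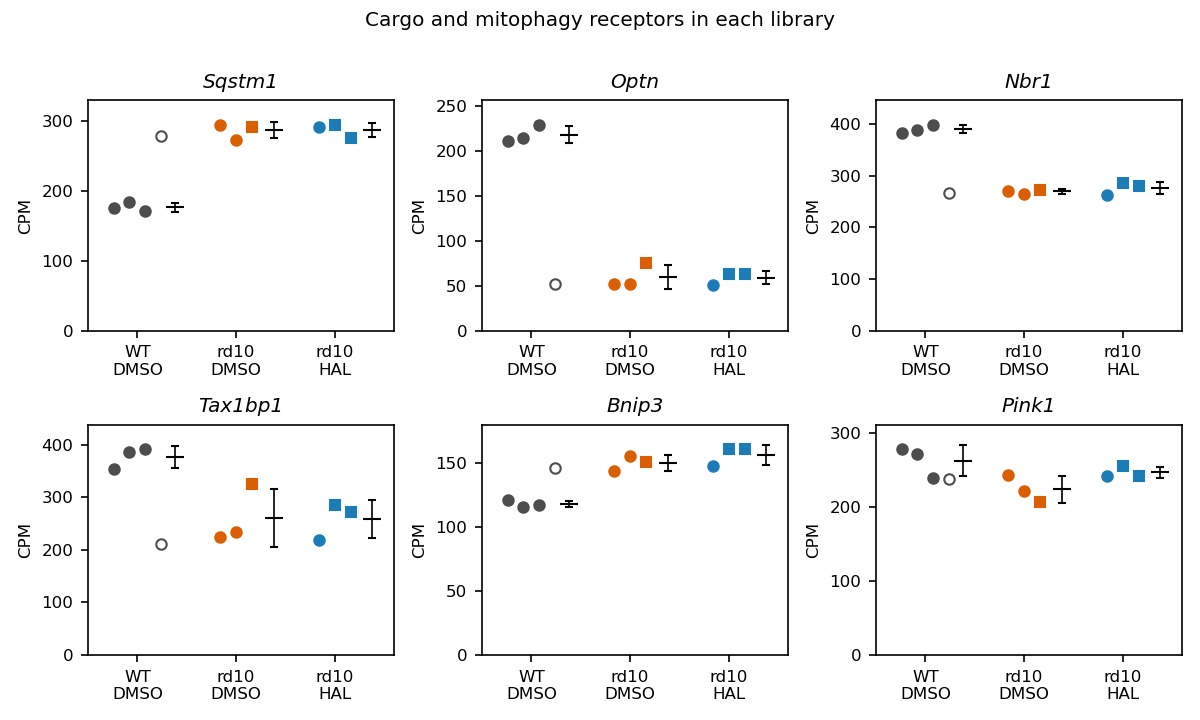
CPM of each receptor by group; circles are batch 1 and squares batch 2 libraries, the open circle is W4, and the bar beside each group is the mean ± SD of 3 libraries, W4 left out. W4 sits at the rd10 level for Sqstm1, Optn, Nbr1, Tax1bp1 and Bnip3, and the batch 2 rd10 libraries sit above the batch 1 rd10 libraries for Optn, Tax1bp1 and, by less, Nbr1.

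Sequence upstream of the start site is shown for 3 called members, 2 that fell and 1 that rose, to set the letters of commonly searched motifs beside the changes. Of the 37 members, 31 have an entry in the RefSeq promoter table (GRCm38.p6), and the 250 bases before each start were searched on both strands. CACGTG, the core bound by many basic helix-loop-helix factors, was found for 4 of 31 members (Atg3, Atg5, Atg7 and Bnip3), 12.9%, beside 6.86% of 27025 genes. TCACGTGA, the longer form bound by TFEB, which contains CACGTG, was found for 1 of them (Atg3), beside 0.907% of genes. TAATCC, the core bound by the photoreceptor factor CRX, was added after the values were seen and was found for 4 of 31 members (Ambra1, Atg4c, Atg7 and Optn), beside 7.21% of genes. Members holding TAATCC were called lower (Optn and Atg4c) and higher (Ambra1 and Atg7). The Atg7 window lies inside the gene in other transcript models and is not shown. The windows are chr2:5064118-5064367 on the minus strand for Optn, with TAATCC beginning 238 bases before the start, chr4:99193684-99193933 on the plus strand for Atg4c, with TAATCC beginning 82 bases before it, and chr7:138909507-138909756 on the minus strand for Bnip3, with CACGTG beginning 108 bases before it. They are given 5′ to 3′ on the strand of the gene, with the motif in capitals.
Optn: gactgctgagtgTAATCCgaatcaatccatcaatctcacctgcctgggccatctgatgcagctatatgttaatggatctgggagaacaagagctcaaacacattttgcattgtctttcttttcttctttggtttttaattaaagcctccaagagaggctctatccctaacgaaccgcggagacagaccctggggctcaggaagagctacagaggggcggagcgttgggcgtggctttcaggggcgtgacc
Atg4c: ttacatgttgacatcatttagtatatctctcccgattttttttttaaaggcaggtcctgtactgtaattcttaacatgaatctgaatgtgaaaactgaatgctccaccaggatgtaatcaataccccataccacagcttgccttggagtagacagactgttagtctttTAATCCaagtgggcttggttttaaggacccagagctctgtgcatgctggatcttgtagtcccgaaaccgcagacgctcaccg
Bnip3: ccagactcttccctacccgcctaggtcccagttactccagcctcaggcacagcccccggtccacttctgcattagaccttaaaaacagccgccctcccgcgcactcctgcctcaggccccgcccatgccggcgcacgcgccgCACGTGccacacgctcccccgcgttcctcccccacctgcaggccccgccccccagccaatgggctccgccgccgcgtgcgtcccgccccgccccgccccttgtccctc
The starts of the most abundant transcripts in these retinas, Atg4c-201 and Bnip3-201, coincide with the starts in the table, and that of Optn-202 lies 72 bases downstream of it. A match is a match of letters and was not tested for binding.

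The transcript table showed which forms the receptor levels came from. Optn-202, the coding form, held 76.4, 75.8 and 75.4% of the estimated transcript counts of Optn in W1 to W3, 82.3% in W4 and 86.0, 77.9 and 76.5% in rd10 DMSO. Optn-203, a processed transcript without a coding sequence, held 19.1, 21.1 and 20.8% in W1 to W3 and 12.1, 18.1 and 18.7% in rd10 DMSO, and its share in W4 lay within the range of rd10 DMSO. Both forms were at lower CPM in W4 and each rd10 library than in W1 to W3. Sqstm1-202 held 90.6, 91.4 and 86.0% of Sqstm1 in W1 to W3, 90.9% in W4 and 89.6, 90.9 and 83.7% in rd10 DMSO, and Tax1bp1-201 held 94.0, 95.1 and 94.6%, 96.2% and 96.0, 95.3 and 96.6%, so that 1 form carried most of each gene in both genotypes. Nbr1 was split over 6 forms of at least 5%, and Nbr1-204 held 27.1, 23.8 and 31.9% in W1 to W3, 6.77% in W4, 12.2, 12.7 and 19.7% in rd10 DMSO and 4.63, 28.3 and 19.4% in rd10 HAL. For Atg4d, the retained-intron form Atg4d-203 held 51.5, 51.5 and 44.6% in W1 to W3, 42.2% in W4 and 40.9, 39.3 and 37.5% in rd10 DMSO, but 40.4, 50.1 and 48.2% in rd10 HAL. In CPM, the coding form Atg4d-201 was at 16.1, 17.7 and 18.3 in W1 to W3, 15.1 in W4 and 16.2, 18.9 and 17.6 in rd10 DMSO. Atg4d-203 was at 25.3, 27.1 and 21.8 in W1 to W3, 14.1 in W4 and 14.6, 14.9 and 13.0 in rd10 DMSO. W1 to W3 overlapped rd10 DMSO for the first form and not for the second. The error of assigning reads to overlapping forms is not known here, and these shares are a description.

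In rd10 HAL against WT without W4, 21 of 36 members (58.3%) were called, 8 higher and 13 lower, beside 71.9% of all genes. This comparison shares W1 to W3 with that of rd10 DMSO, so the values are set side by side only. Under library size alone the median of all genes was 0.19, and 19 members were called higher (51.0% of all genes) and 6 lower (20.9%). Optn changed by -1.88 ± 0.08 (edgeR adjusted p = 7.92e-07) and Sqstm1 by 0.70 ± 0.05 (adjusted p = 5.46e-06). Atg12 changed by -0.64 ± 0.05, Nbr1 by -0.50 ± 0.05 and Bnip3 by 0.40 ± 0.05 on the log2 scale, each with an adjusted p of at most 0.000102 in edgeR. Members called here and not in rd10 DMSO were Atg4b (-0.22 here and -0.14 in rd10 DMSO), Atg16l1 (-0.30 and -0.28), Atg5 (-0.26 and -0.17) and Map1lc3a (0.19 and 0.21), and none of them was called between HAL and DMSO. Atg5 lost its call without H2, H3 or W2 (adjusted p up to 0.0776), Map1lc3a without H1, H2, W1, W2 or W3 (up to 0.114) and Pik3r4, at 0.0464 with all 6 libraries, without H1, H2, H3, W1 or W3 (up to 0.162). Under library size alone Atg4b, Atg16l1, Atg5, Pik3r4, Rb1cc1, Uvrag and Wipi2, called lower with TMM, lost their call, and Pik3r4 turned to 0.045. Of the 21 calls, 18 held when any 1 further library was left out, and 13 held under each alternative test, scaling and filter as well. With W4 kept, edgeR called 0 members, beside 1 of 11699 genes (0.00855%), and 9 of 36 members had an unadjusted p under 0.05 beside 34.6% of all genes. DESeq2 called 5 of 36 (Atg12, Bnip3, Optn, Rb1cc1 and Ulk1), beside 19.0% of all genes, and limma-voom 0. Optn then had a log2 fold change of -1.58 ± 0.49 and Sqstm1 of 0.51 ± 0.18 (edgeR adjusted p = 0.135 and 0.135). The log2 fold changes were then -0.50 for Atg12, -0.38 for Nbr1, 0.32 for Bnip3, -0.17 for Atg4b, -0.21 for Atg16l1, -0.20 for Atg5, 0.14 for Map1lc3a and -0.13 for Pik3r4, with edgeR adjusted p between 0.135 and 0.299.

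**Figure D3:**
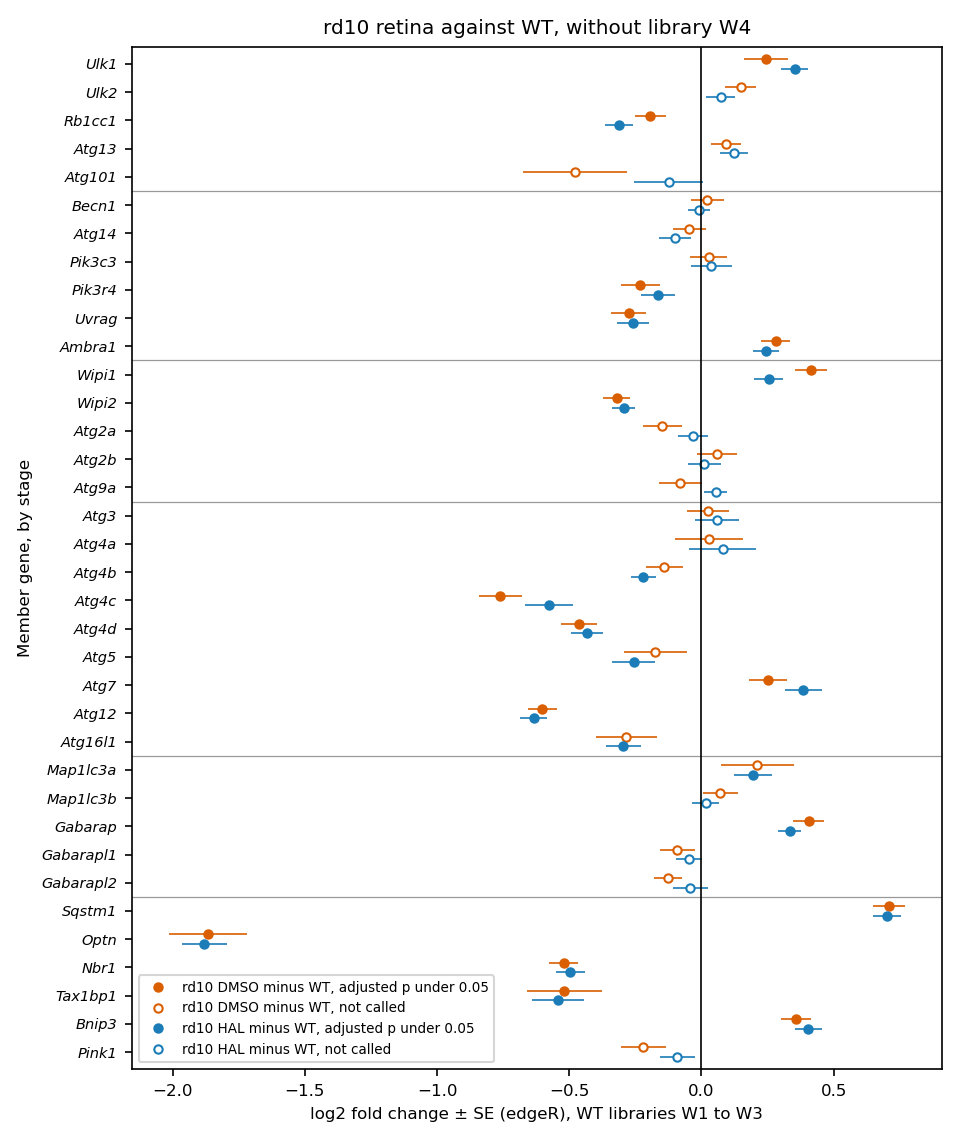
Log2 fold change ± SE from edgeR for each member, ordered by stage, for rd10 DMSO (orange) and rd10 HAL (blue) against W1 to W3; filled points have an adjusted p under 0.05. Optn lies at -1.87 and -1.88 and Sqstm1 at 0.71 and 0.70, while the remaining members lie between -0.76 and 0.41.

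Halofantrine against DMSO in rd10 gave 0 called members in edgeR, and 0.0% of all genes were called. The smallest adjusted p among members was 0.883, DESeq2 and limma-voom called 0 members as well, and 1 member had an unadjusted p under 0.05 in edgeR (2.78% of members, 4.76% of all genes). The median absolute log2 fold change was 0.05 over the members and 0.07 over all genes. The 3 HAL libraries lay on one side of the 3 DMSO libraries for 4 members (11.1%), beside 13.1% of all genes. These were Wipi1, which was lower under HAL, and Atg7, Pik3r4 and Atg9a, which were higher. Wipi1 had a log2 fold change of -0.15 ± 0.06 (edgeR, unadjusted p = 0.0443, adjusted p = 0.883), and the difference was -0.08 within batch 1 and -0.19 within batch 2 in log2 CPM. Atg7 had one of 0.14 ± 0.07 (edgeR adjusted p = 0.883), with 0.18 and 0.16 within the batches. The batches hold 1 HAL with 2 DMSO libraries and 2 HAL with 1 DMSO library.

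The other members with the smallest p in each direction were Rb1cc1 at -0.11 ± 0.07, Gabarap at -0.06 ± 0.06, Pink1 at 0.14 ± 0.07 and Atg101 at 0.36 ± 0.18 on the log2 scale (edgeR adjusted p = 0.883 to 0.894). For Atg101 the difference was 0.07 within batch 1 and 0.85 within batch 2, where D3 had the lowest level of the gene. The intervals set how large a change could have been missed. The 95% interval was -0.14 to 0.14 for Sqstm1, -0.10 to 0.17 for Nbr1, -0.09 to 0.21 for Bnip3, -0.19 to 0.09 for Map1lc3b and -0.10 to 0.21 for Gabarapl1. It was wider for Optn (-0.38 to 0.37), Tax1bp1 (-0.39 to 0.36) and Map1lc3a (-0.35 to 0.34), whose levels differed between libraries of the same group. With batch as a covariate 0 members were called in edgeR and 5 of 36 had an unadjusted p under 0.05, beside 16.6% of all genes.

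**Figure D4:**
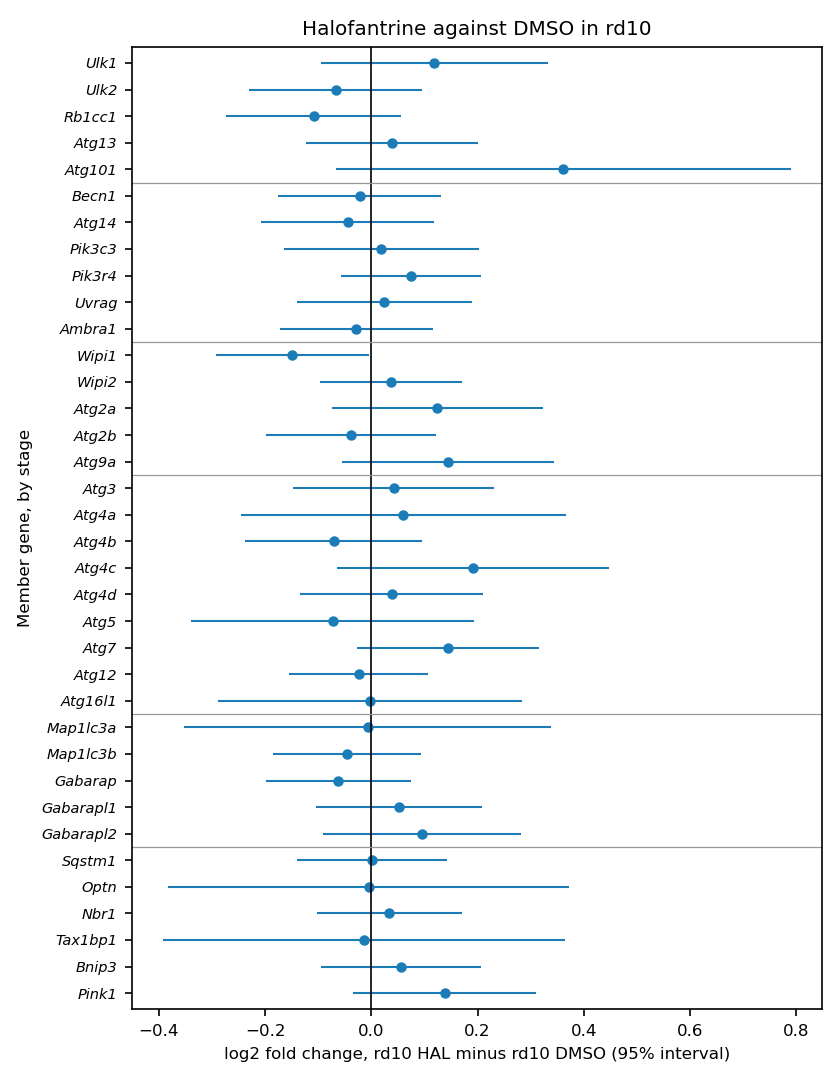
Log2 fold change of rd10 HAL minus rd10 DMSO for each member with its 95% interval from edgeR, 3 libraries against 3. The interval includes 0 for all members but Wipi1 (-0.29 to -0.01), which was not called after adjustment.

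Among the 6 rd10 libraries, batch 2 was compared with batch 1 with treatment as a covariate. Optn and Tax1bp1 were called higher in batch 2, 2 of 36 members (5.56%) beside 4.63% of all genes, and 4 members (11.1%) had an unadjusted p under 0.05 beside 27.6% of all genes. Optn was higher by 0.42 ± 0.06 (edgeR adjusted p = 0.0185), by 0.53 within DMSO and 0.30 within HAL in log2 CPM. Tax1bp1 was higher by 0.42 ± 0.06 (adjusted p = 0.0102), by 0.50 within DMSO and 0.35 within HAL. Atg16l1 followed at 0.29 ± 0.06 without a call in edgeR (adjusted p = 0.0527), and was called by DESeq2, without H1 and in the fit of 9 libraries without W4 (adjusted p down to 0.00647), where 12.1, 22.5 and 12.1% of all genes were called. The members with the smallest p among those lower in batch 2 were Ulk1 at -0.18 ± 0.07, Map1lc3a at -0.28 ± 0.12 and Atg5 at -0.18 ± 0.10, none of them called. The call of Optn was lost without D1, D2, D3, H2 or H3 (edgeR adjusted p up to 0.0978) and that of Tax1bp1 without D3 (adjusted p = 0.0795). Without H1, Optn, Tax1bp1 and Atg16l1 were called higher and Ulk1, Map1lc3a and Atg9a lower, 6 of 36 members beside 22.5% of all genes.

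The rod and cone marker sums were higher in the batch 2 rd10 libraries, as Optn and Tax1bp1 were, and some other sums were lower. As a percentage of the mean of W1 to W3, the rod sum was 5.29, 5.48 and 4.99% in the batch 1 libraries D1, D2 and H1 and 14.7, 12.3 and 10.3% in the batch 2 libraries D3, H2 and H3. The sum of cone markers was 1517, 1650.3 and 1551 CPM in D1, D2 and H1 and 1829, 2141 and 2026 CPM in D3, H2 and H3. In the same order, the bipolar sum was 3135, 3188 and 3263 against 2773, 3012 and 3012 CPM, the amacrine sum 2582, 2628 and 2703 against 2305, 2535 and 2489.6 CPM, the endothelium sum 573, 621 and 632 against 450.0, 568 and 556 CPM and the microglia sum 207, 189 and 191 against 168, 175 and 183 CPM, all lower in batch 2, while the Müller glia and gliosis sums overlapped. The ganglion and pigment epithelium sums overlapped as well. The blood sum was 30.8, 15.5 and 11.8 against 28.5, 96.5 and 79.6 CPM. The lens sum was 0.287, 0.477 and 0.407 against 5.54, 22.5 and 0.21 CPM. Both overlapped between the batches and were highest in H2. Optn was at 23.8, 23.7 and 23.5% in batch 1 and 34.4, 28.9 and 29.0% in batch 2. Tax1bp1 was at 59.8, 61.9 and 58.0% and 86.2, 75.9 and 72.1%, and Atg16l1 at 71.5, 76.4 and 74.2% and 96.9, 85.6 and 84.5%. Sqstm1, in contrast, was at 167, 155 and 165% in batch 1 and 165, 167 and 156% in batch 2. For Optn, Tax1bp1 and Atg16l1, D3 was the highest rd10 library, as it was for the rod marker sum. Other members called lower in rd10 DMSO did not all follow this order. Atg4c was at 59.1, 62.6 and 57.6% in batch 1 and 53.7, 73.3 and 69.9% in batch 2, with D3 the lowest. Atg4d was at 71.3, 75.6 and 78.3% and 69.1, 71.1 and 72.9%, and Atg12 at 65.7, 64.4 and 62.8% and 66.1, 66.7 and 63.6%. Nbr1 was at 69.6, 67.9 and 67.4% and 70.1, 73.5 and 71.7%, higher in batch 2. What the batches stand for is not given in the labels, and the part of these marker levels in the differences was not tested.

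**Figure D5:**
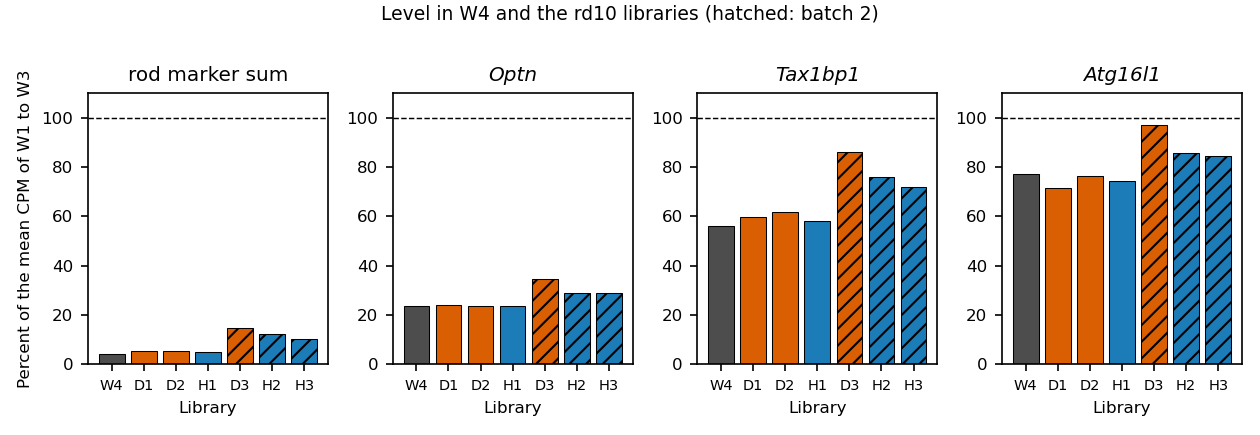
Level in W4 and in each rd10 library as a percentage of the mean CPM of W1 to W3 (dashed line at 100%), for the sum of 14 rod markers and for Optn, Tax1bp1 and Atg16l1; grey is W4, orange rd10 DMSO, blue rd10 HAL, and hatched bars are batch 2. In all 4 panels the 3 batch 2 libraries stand above W4, D1, D2 and H1.

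Genes that regulate or complete autophagy were described from a further list of 79 names, 75 of them in the gene table. Without W4, 34 of 75 (45.3%) were called in rd10 DMSO against WT, 14 higher and 20 lower, beside 62.2% of all genes. Of these, 12 of 28 upstream kinases and mTORC1 genes, 4 of 6 transcription factors, 6 of 14 further core factors, 5 of 12 fusion genes and 7 of 15 further receptors were called. Ppargc1a, a coactivator of mitochondrial genes, had the smallest p and stood at 81.3, 80.7 and 86.2 CPM in W1 to W3, 41.4 in W4 and 40.2, 41.5 and 41.1 in rd10 DMSO, for a log2 fold change of -1 ± 0.06 (edgeR adjusted p = 1.91e-05). Flcn, a Rag GTPase regulator, changed by -0.70 ± 0.05, and Ddit4 (REDD1), a stress-induced inhibitor of mTORC1, by -1.28 ± 0.12. Prkab1, a subunit of AMPK, stood at 136, 155 and 139 CPM in W1 to W3, 36.1 in W4, 37.2, 38.2 and 61.5 in rd10 DMSO and 37.9, 55.0 and 53.0 in rd10 HAL, and changed by -1.65 ± 0.19 (adjusted p = 0.00026). W4, D1, D2 and H1 were its lowest libraries and D3 its highest in rd10, as for Optn.

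Higher among these genes were Rab7, a GTPase of late endosomes and lysosomes (0.37 ± 0.06), Deptor, an inhibitor of mTOR (0.48 ± 0.09), Retreg1, a receptor for endoplasmic reticulum (0.34 ± 0.08), and Stx17, the SNARE of the autophagosome (0.41 ± 0.10). Rab7 stood at 203, 213 and 205 CPM in W1 to W3, 273 in W4 and 278, 263 and 257 in rd10 DMSO, with no overlap between W1 to W3 and the rest. With W4 kept, 0 of 75 were called by edgeR and 14 had an unadjusted p under 0.05, beside 26.6% of all genes. The log2 fold changes of the 8 genes then lay between -1.35 for Prkab1 and 0.38 for Deptor. HAL against DMSO called 0 of 75 in edgeR, with 3 at an unadjusted p under 0.05 beside 4.76% of all genes, and batch 2 against batch 1 called 3, all higher (Prkab1, Rragc and Sesn1), beside 4.63% of all genes. In rd10 HAL against WT without W4, 46 of 75 (61.3%) were called, 18 higher and 28 lower, beside 71.9% of all genes. With W4 kept in that comparison, edgeR called 0 of 75, beside 0.00855% of all genes. Of the 75, 16 then had an unadjusted p under 0.05, beside 34.6% of all genes.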

How the data were processed

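Retinal RNA of RIN at least 9 was prepared by the authors with a strand-specific mRNA kit, and reads were assigned with Kallisto to the Ensembl mouse transcriptome (GRCm39) and imported with tximport. The deposited gene and transcript tables hold estimated counts, not normalized, for 10 libraries, and the gene table is limited to 11702 genes, 11492 of them matched to a symbol. A deposited table of scaled signal holds these gene counts divided by 1 factor per library by the authors, and it was used only to recompute sums by stage. A table of the authors' own comparison (log2 fold changes, test scores and p-values) was not used.

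Estimated counts were rounded and tested with edgeR 4.0.16 (quasi-likelihood F test, TMM scaling, filterByExpr) in R 4.3.3, with Benjamini-Hochberg adjustment over all genes tested and a call at an adjusted p under 0.05. DESeq2 1.42.0, limma-voom (limma 3.58.1), other scalings, no filter, a fit of all libraries, a batch term and leaving out each library were tried as alternatives. Summaries and exact permutation tests were made with python 3.11.15 and scipy 1.17.1. Log2 CPM used a prior count of 2. CPM per kb used transcript lengths of GENCODE M21 (GRCm38). The fits were also run on simulated counts with the same dispersion for all genes and no outlying library. That setting differs from the libraries used here, so it does not test the results that depend on W4. Replicate libraries all differed beyond sampling noise, and none was counted as a duplicate. Gene counts of 15512212 to 38160436 per library limit the precision of low genes most. Whether the assignment used the strand is not given in the sources used here, and overlapping or antisense genes were not examined.

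Members and lists were chosen with earlier results of these data known. Values in every library were given for the ATG8 genes, the receptors and each other member called in rd10 DMSO against WT (up to 10 per direction), and for further members where a library decided a result; fold changes were given for those and for the 3 members per direction with the smallest p in the other comparisons. Of the other autophagy genes, up to 4 per direction were named. The main comparisons without W4 were planned because of those earlier results. The alternative fits without W4 and the motif TAATCC were added after the values were seen.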

Additional observations from a re-analysis of the deposited data

Results flagged for a closer look

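Within the 4 libraries labelled WT, 1 library stood apart from the others in 7 of 36 members by Dixon's ratio, the gap to the nearest library divided by the range of the group (beyond its 95% critical value for 4 libraries). Chance gives about 1 in 20, or 1.8 of 36. Over all 11702 genes a library stood apart in the same way in 29.0%, and it was W4 in 28.2%, beside 19.4% and 16.7% of the members. In 6 of the 7 the library was W4, with a ratio of 0.901 for Wipi2, 0.898 for Optn, 0.884 for Nbr1, 0.882 for Sqstm1, 0.833 for Bnip3 and 0.831 for Atg12. In the remaining gene, Atg2b, W2 was the lowest library, with a ratio of 0.868. For the 6 genes W4 lay on the rd10 side of W1 to W3.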

How the results depend on the processing

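No paired analysis was possible because the labels give no replicate numbers that link libraries across groups. For rd10 DMSO against WT with W4 kept, 0 members were called by edgeR, 1 by DESeq2 and 0 to 17 when 1 library was left out, with 17 only without W4. For rd10 HAL against WT the counts were 0, 5 and 0 to 21, with 21 only without W4. Without W4, the count for rd10 DMSO was 12 to 21 when a further library was left out (52.6 to 72.3% of all genes) and 17 to 21 under the other tests, scalings and sample choices (62.2 to 72.3%), and for rd10 HAL 18 to 20 (65.4 to 70.4% of all genes) and 19 to 25 (66.6 to 72.0%). Batch 2 against batch 1 gave 0 called members with all 10 libraries in one fit (0% of all genes) and 0 with no treatment covariate (1.86%). In these 2 fits, 1 and 3 members had an unadjusted p under 0.05, beside 5.75 and 18.2% of all genes. The batch comparison gave 3 called members under DESeq2 and in a fit of the 9 libraries without W4 (12.1% of all genes in each). When 1 library was left out it gave 0 to 6, with 0 without D3 (0.778% of all genes) and 6 without H1 (22.5%). HAL against DMSO gave 0 under every alternative run, with 0 to 5 members at an unadjusted p under 0.05 beside 1.58 to 16.6% of all genes. Under library size alone, Rb1cc1 turned to 0.012 in rd10 DMSO and Pik3r4 to 0.045 in rd10 HAL against W1 to W3. The fold changes of members called without W4 in the WT comparisons, and of the 6 members named in each of the other 2, kept direction and side of the threshold in 576 recomputed values, lost a call in 58, gained one in 5 (all in the batch comparison) and reversed in 2, and the cause was not tested. Depth was lowest in D3, and Atg10, Atg4a, Atg101 and Atg5 have the fewest counts.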
